A study of Mus musculus with 4 samples.

Results

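Dense clusters of non-SMC-only distal regions are stretches of the mouse genome in which many stretches of open chromatin away from gene starts had a peak in each non-SMC line but no peak in an SMC line. Distal here means that the midpoint lay over 3 kb from the 5′ end of every protein-coding gene. They were chosen by the peak lists themselves: the 4 lists were merged into 357556 regions, of which 26224 had a peak in both non-SMC lists and in neither SMC list, and 24239 of those were distal. The members are the 4842 of these distal regions that fell into fixed 100 kb bins holding 5 or more of them, which is 20% of the non-SMC-only distal regions. They lay in 829 bins, 7.23% of the 11468 bins with at least 1 such region. The other 19397 non-SMC-only distal regions, in bins with 1 to 4, are called scattered. Since the lists chose the members, the absence of an SMC peak at a member, and any count of members by cell type, is a description and was not tested.

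The assay was ATAC-seq, in which a transposase inserts adapters wherever DNA is open, on cultures that received no treatment. SMC lines (NCAMhi CD44lo/-) and non-SMC lines (NCAMlo CD44hi) were sorted by flow cytometry from lung tumors of Rb1L/L Trp53L/L mice. The mice had a mixed C57Bl/6, Balb-c and S129 background, and both genes were deleted by adenoviral Cre given through the trachea. The paper reports that genotyping found this deletion in both sorted populations. All 4 lines were grown in the same medium. There were 2 lines of each type and 1 library per line, so a library is a line, and the age of the animals when a line was made, and whether a line is 1 clone, were not given in the sources used here. The smallest two-sided p that an exact permutation test of 2 libraries against 2 can give is 0.333, so the cell types were compared without a test. The lists held 91046 peaks for SMC 1, 153950 for SMC 2, 115827 for non-SMC 1 and 128705 for non-SMC 2. The genome background, the lowest local pileup of reads behind any peak of a library, was 0.456, 1.54, 1.49 and 0.639 in the same order, so SMC 1 and non-SMC 2 were the shallower libraries. The smallest pileup listed was 3 in SMC 1 and non-SMC 2 and 5 in SMC 2 and non-SMC 1. The labels could be checked at the sorting markers: the promoter of Cd44, within 1 kb of its 5′ end, had a peak in SMC 2 and both non-SMC lines and none in SMC 1, whereas the Ncam1 promoter had a peak in all 4 libraries.

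Distal open regions often hold enhancers, short DNA elements that bind transcription factors and act on genes over long distances. Many such elements close together are typical of genes that a cell type uses strongly. AP-1, a dimer of Jun and Fos family proteins, TEAD, the DNA-binding partner of YAP and TAZ, and RUNX factors are known to bind enhancers of adherent, mesenchymal-like cells, and AP-1 and TEAD often bind the same element. SOX, FOX and E-box binding factors are known for enhancers of neuroendocrine small cell lung cancer.

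The sequences below show the motifs on which the comparison of members turned. Each is 201 bases of the plus strand of GRCm38, the assembly of mm10, centred on the summit of a member, in lower case with exact matches to AP-1 (TGACTCA), TEAD (GGAATG) and RUNX (TGTGGT or TGCGGT) on either strand in capitals. The first 5 are the strongest members of those 5 of the 12 largest clusters whose strongest member held AP-1 or TEAD; in the other 7 clusters it held RUNX alone in 3 and none of the 3 motifs in 4. The last 5 were picked after their values were seen: 3 of the strongest members of all, the strongest member of a dense bin without any AP-1 match, and the strongest member nearest to Cd44.
St3gal1 intron, chr15:67161749-67161949: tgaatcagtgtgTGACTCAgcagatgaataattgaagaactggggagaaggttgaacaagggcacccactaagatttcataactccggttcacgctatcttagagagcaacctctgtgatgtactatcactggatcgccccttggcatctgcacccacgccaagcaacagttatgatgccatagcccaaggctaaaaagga
Pvt1 and Myc cluster, chr15:62321031-62321231: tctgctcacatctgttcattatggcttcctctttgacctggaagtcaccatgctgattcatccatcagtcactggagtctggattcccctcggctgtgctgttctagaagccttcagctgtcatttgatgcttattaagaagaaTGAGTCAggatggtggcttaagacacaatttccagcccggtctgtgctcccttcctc
Ext1 intron, chr15:53222544-53222744: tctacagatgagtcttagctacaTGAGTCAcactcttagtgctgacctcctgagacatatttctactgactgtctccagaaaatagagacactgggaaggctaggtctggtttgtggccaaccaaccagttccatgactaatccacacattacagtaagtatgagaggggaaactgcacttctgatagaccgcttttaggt
Ltbp1 intron, chr17:75256071-75256271: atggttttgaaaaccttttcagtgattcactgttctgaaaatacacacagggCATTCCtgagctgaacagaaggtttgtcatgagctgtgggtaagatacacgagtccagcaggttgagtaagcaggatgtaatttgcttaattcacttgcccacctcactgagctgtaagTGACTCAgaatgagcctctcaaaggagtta
Zmiz1 intron, chr14:25476140-25476340: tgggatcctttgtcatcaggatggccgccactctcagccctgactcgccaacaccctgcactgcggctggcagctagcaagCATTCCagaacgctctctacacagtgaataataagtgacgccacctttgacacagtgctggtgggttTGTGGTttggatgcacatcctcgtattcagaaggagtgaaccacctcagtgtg
Nearest gene Capn13, chr17:73263208-73263408: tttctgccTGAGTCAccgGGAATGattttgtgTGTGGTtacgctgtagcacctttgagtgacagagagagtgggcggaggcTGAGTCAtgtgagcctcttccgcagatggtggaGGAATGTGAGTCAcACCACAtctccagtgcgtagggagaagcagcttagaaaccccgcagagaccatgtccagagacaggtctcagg
Nearest gene Trio, chr15:28081296-28081496: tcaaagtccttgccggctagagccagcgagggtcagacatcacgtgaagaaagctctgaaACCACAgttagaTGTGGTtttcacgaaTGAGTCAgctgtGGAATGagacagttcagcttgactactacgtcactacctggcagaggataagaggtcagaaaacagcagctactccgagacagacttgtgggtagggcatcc
Nearest gene Gpat3, chr5:101163204-101163404: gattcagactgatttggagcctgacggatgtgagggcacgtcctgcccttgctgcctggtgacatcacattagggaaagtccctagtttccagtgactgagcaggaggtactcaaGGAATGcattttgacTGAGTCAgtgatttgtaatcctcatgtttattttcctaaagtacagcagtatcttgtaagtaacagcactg
Rad51b intron, chr12:79504166-79504366: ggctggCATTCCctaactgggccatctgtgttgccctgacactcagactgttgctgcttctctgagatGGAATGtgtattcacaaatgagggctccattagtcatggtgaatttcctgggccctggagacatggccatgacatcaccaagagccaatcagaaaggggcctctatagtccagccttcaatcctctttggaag
Nearest gene Cd44, chr2:102944069-102944269: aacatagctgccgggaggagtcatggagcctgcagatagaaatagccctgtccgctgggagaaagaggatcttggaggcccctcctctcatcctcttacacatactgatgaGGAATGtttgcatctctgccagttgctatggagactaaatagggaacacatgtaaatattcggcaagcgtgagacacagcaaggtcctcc
The Capn13 member held 3 AP-1, 2 TEAD and 2 RUNX matches, and in it a TEAD and an AP-1 match abutted. The Trio member held 1 AP-1, 1 TEAD and 2 RUNX matches. The St3gal1, Pvt1 and Ext1 members held 1 AP-1 match each and no TEAD or RUNX match. The Ltbp1 and Gpat3 members held 1 AP-1 and 1 TEAD match each, and the Zmiz1 member 1 TEAD and 1 RUNX match without AP-1. The Rad51b member held 2 TEAD matches and the Cd44 member 1.

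The members were spread thinly within their bins and the bins fell off steeply by count. Of the 829 bins, 442 held 5 members, 208 held 6, 106 held 7, 38 held 8, 18 held 9, 11 held 10 and 6 held 11. Neighbouring member summits within a bin lay a median of 10170 bp apart, and 480 of 4013 gaps (11.96%) were at most 2 kb. The members of a bin spanned a median of 69137 bp from the first to the last summit and covered a median of 2712 bases of it. The same rule applied to SMC-only distal regions found 629 regions in 111 bins, 4.45% of the 14128 SMC-only distal regions. The largest counts were in SMC-only bins, however, with 1 bin of 15 and 1 of 23, whereas no non-SMC-only bin held more than 11. Of the 829 and 111 dense bins, among 26350 bins of 100 kb on these chromosomes, 7 were dense in both senses.

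**Figure D1:**
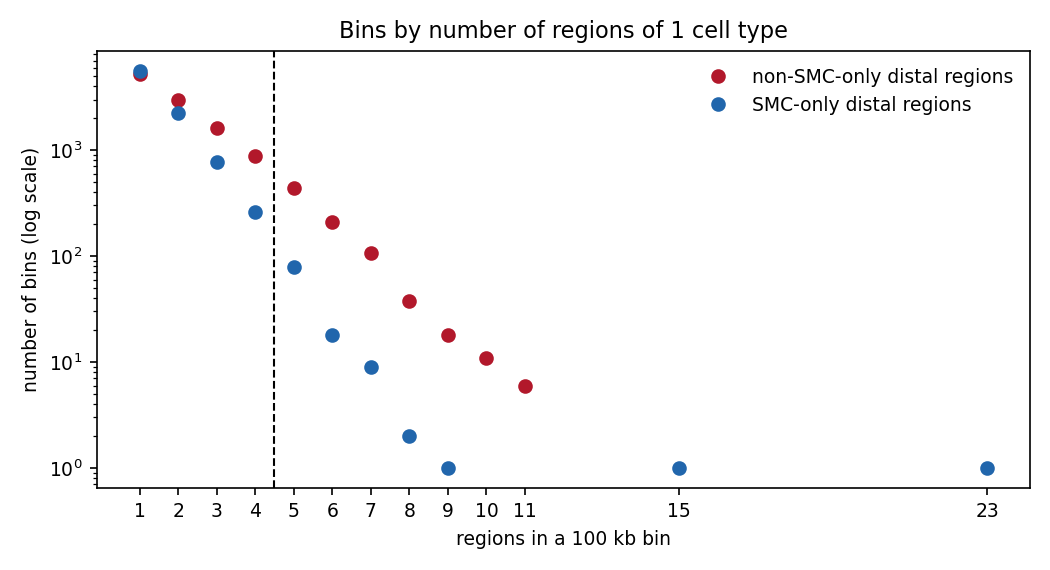
Number of 100 kb bins (vertical axis, log scale) by the number of non-SMC-only (red) or SMC-only (blue) distal regions in the bin (horizontal axis), with the dashed line between 4 and 5, where members begin. From 2 regions to 9 the red points lie above the blue, with 442 against 79 bins at 5, and the blue points at 15 and 23 are 1 bin each.

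At the edge of the rule the values ran on without a step. The 2210 members in bins with exactly 5 had a median fold enrichment of 6.49 in non-SMC 1 and 5.24 in non-SMC 2, and the 3496 scattered regions in bins with 4 had 6.40 and 5.21. A -log10 q of at least 5 in both lines was reached by 42.1% of the former and 41.1% of the latter.

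The members ranged from the weakest to the strongest peaks of both non-SMC lists, with medians above those of the lists. Fold enrichment, the pileup at the summit over the local background with 1 added to each, ran from 1.89 through a median of 6.40 to 21.3 in non-SMC 1 and from 2.19 through 5.19 to 23.2 in non-SMC 2. Within their own lists these were median percentiles of 75.8 and 78.8, so the typical member stood above most peaks of both lists. The pileup had a median of 24 reads in non-SMC 1 and 10 in non-SMC 2, which is 16.2 and 15.7 times the genome background of each. Scattered regions had medians of 12.1 and 12.5 times. Their median fold enrichment was closer, with 6.22 and 4.88, and the local background behind a peak was higher at members (medians 1.81 and 1.57 times the genome background) than at scattered regions (1.27 and 1.18). Pileup and background were therefore both higher in dense bins, and how far one moved the other was not tested.

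Peak heights in the 2 non-SMC lines were related. Across the 4842 members, Spearman's rank correlation between the heights in non-SMC 1 and non-SMC 2 was 0.656, and across scattered regions 0.610; these are descriptions across regions, which share base composition and the same 2 libraries. The 2 summits lay a median of 41 bp apart, and 58.5% of members had them within 50 bp. A -log10 q of at least 5 was reached in both lines by 2067 members (42.7%, Wilson 95% interval 41.3 to 44.1) and in neither by 1075 (22.2%); among scattered regions 37.2% reached it in both. In non-SMC 1 alone 72.9% of members reached it and in the shallower non-SMC 2 47.6%. The intervals given here and below cover counting error only, and regions of 1 bin are not independent.

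The shallow SMC 1 library limits what the missing SMC peaks show. Its smallest listed pileup stood at 6.58 times its genome background, against 3.25 times in SMC 2. In both non-SMC lines, 3946 members (81.5%) stood higher than the SMC 1 limit, against 72.6% of scattered regions. The smallest listed heights in non-SMC 1 and non-SMC 2 were 3.37 and 4.70 times background. Any peak listed there, at a member or not, therefore stood higher than the SMC 2 limit. Both SMC limits hold at the genome background, and a higher local background asks for a higher pileup. In member bins with a peak, the local background had medians of 1.29 times in SMC 1 and 1.09 in SMC 2. The highest bins had 3.65 and 3.70 times. Standing above a limit thus does not show that a member would have been listed in that SMC library. A member below the SMC 1 limit in a non-SMC line could not have been listed at that height in SMC 1.

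**Figure D2:**
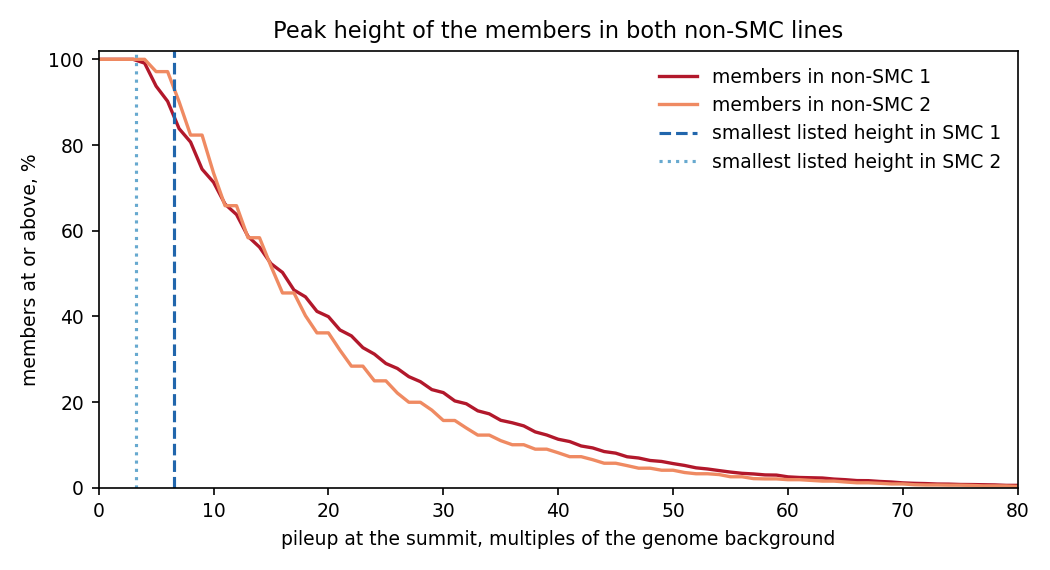
Share of the 4842 members (vertical axis, %) whose pileup at the summit reached a given multiple of the genome background (horizontal axis) in non-SMC 1 (dark red) and non-SMC 2 (orange); the blue dashed and dotted lines mark the smallest listed height in SMC 1 and SMC 2. The curves run close together, with 39.9% and 36.2% of members at 20 times or more, and 81.5% of members stood to the right of the dashed line in both lines.

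The 5 strongest members, ranked by their mean percentile in the 2 non-SMC lists, all lay between genes, from 12014 to 317724 bp from a 5′ end. The first lay 317724 bp from the 5′ end of Gpat3, an enzyme of triglyceride synthesis, with a pileup of 98 in non-SMC 1 (66.0 times background) and 48 in non-SMC 2 (75.1 times). The second lay 55171 bp from Slit3, a secreted guidance ligand, with 161 (108 times) and 68 (106 times). The third was the Capn13 member printed above, with 146 (98.3 times) and 45 (70.4 times). The Trio member, near a guanine nucleotide exchange factor gene, had 94 (63.3 times) and 44 (68.9 times). The fifth lay 12014 bp from Kdr, the VEGF receptor of endothelial cells, with 115 (77.4 times) and 54 (84.5 times). Relative to its own background, the height in the 2 lines was closest in the Slit3 member and furthest apart in the Capn13 member. These 5 were picked for a high rank in both non-SMC lists, so being high in both lines follows from the choice. The lack of an SMC peak there is the rule itself.

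Members lay inside genes about as often as between them. Of 4842, 2467 (51.0%) lay in introns, 86 (1.78%) in exons and 2289 (47.3%) between protein-coding genes, against 47.5%, 2.53% and 49.97% of scattered regions. The median distance to the nearest 5′ end was 53221.5 bp, compared with 46867 bp for scattered regions. GC content within 100 bp of the summit had a median of 48.3%, against 46.8%.

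Chromosome 15 carried more than its share of members. It held 479, which is 30.1% of its own non-SMC-only distal regions where 20% was the share over all chromosomes, and 9.89% of all members against 6.58% of all non-SMC-only distal regions. Chromosome 10 with 9.53%, chromosome X with 9.71% and chromosome 12 with 11.8% had the lowest shares of their distal regions in dense bins. The median local background on chromosome 15 was 1.45, 1.11, 1.28 and 1.20 times the genome background in SMC 1, SMC 2, non-SMC 1 and non-SMC 2. Chromosome 11, with 20.04% in dense bins, had 1.496, 1.24, 1.39 and 1.23. In non-SMC 1 and non-SMC 2 the values of chromosome 15 were among the highest of the 20 chromosomes, and the part of the background in its share of members was not tested.

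A raised background was rare in member bins. The median over bins of the local background was 1.53 times the genome background in non-SMC 1 and 1.35 in non-SMC 2, against 1.13 and 1.06 in bins with 1 to 4 regions. In SMC 1 and SMC 2 it was 1.29 and 1.09 over the member bins with a peak. It reached 5 times in 2 member bins. One held 9 members near Frmd8 on chromosome 19, with 6.999 and 8.34 times in the non-SMC lines and 2.64 and 1.83 in the SMC lines. The other held 5 members at Gdnf, a neurotrophic factor gene on chromosome 15, with 5.26 times in non-SMC 1 and 2.50 in non-SMC 2. Without these 2 bins 4828 members were left.

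The bins were rarely closed in SMC cells as a whole. They held a median of 5 peaks in SMC 1, 10 in SMC 2, 13 in non-SMC 1 and 13 in non-SMC 2. Leaving aside the non-SMC-only distal regions, the non-SMC medians were 7 and 6. Bins with 1 to 4 non-SMC-only distal regions had medians of 4 in SMC 1 and 8 in SMC 2. SMC 1 had no peak in 8.81% of member bins and 12.8% of bins with 1 to 4. SMC 2 had none in 3.38% and 6.86%. At least 1 SMC-only distal region lay in 405 of the 829 bins (48.9%), and in 9021 of all 26350 bins of 100 kb. At least 1 distal region with a peak in all 4 libraries lay in 309 member bins. The nearest SMC peak of either line lay a median of 3358.5 bp from a member, and within 1 kb of 778 members (16.1%). Neither SMC line had any peak in 16 bins.

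Those 16 bins were long gene-poor stretches or introns. The fullest held 10 members inside Galk2 on chromosome 2, of which 7 were nearest to Cops2, a COP9 signalosome subunit gene, and 3 to Fgf7, a fibroblast growth factor gene, with 13 peaks in each non-SMC line. Another held 8 members in Arhgap42, a GTPase activating protein gene, with 19 and 8 non-SMC peaks. One more held 7 members nearest to Egflam, a matrix protein gene, with 9 and 13. Others held 6 members each nearest to Inhba, a subunit of activin, in Dlc1, and beside Tes and Cav2, genes of focal adhesions and caveolae. Of the 16, 2 held a protein-coding gene start, one of them that of Adgrl4, an adhesion receptor, whose promoter was itself non-SMC-only.

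The fullest bins, with 11 members each, were 6. In the bin of Ptgs2, which encodes the inducible cyclooxygenase COX-2, all 11 members were nearest to that gene; SMC 1 had 1 peak there and SMC 2 none, against 17 and 14 in the non-SMC lines, and 7 members held AP-1. A bin without a gene start, whose 11 members were nearest to Trabd2b, had 3 SMC 1 peaks and no SMC 2 peak against 13 and 12. The bins at Col5a1, a fibrillar collagen chain, and Csf1, the growth factor of macrophages, had 9 and 6 peaks in SMC 1, 12 and 13 in SMC 2, 19 and 21 in non-SMC 1, and 18 and 18 in non-SMC 2. The bin at Pacsin2, a membrane-bending protein, had 7, 12, 19 and 19 in the same order. The last, beside Dnajb6, had 7 members nearest to Gm5129 and 4 nearest to Il6, the gene of interleukin 6. It had no SMC 1 peak, 5 SMC 2 peaks, and 14 and 17 in the non-SMC lines. SMC peaks were thus sparse in 3 of these 6 bins and frequent in the others.

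Joined across adjacent bins, the 829 bins formed 703 clusters, of which 599 were 1 bin, 82 were 2 and 22 were 3. The largest held 24 members over chr4:88900001-89200000 around Mtap, a methionine salvage enzyme gene, and the sixth held 20 members over chr4:89300001-89600000 around Cdkn2b, a cell cycle inhibitor gene, with 1 bin between them that was not dense. The Mtap cluster had 7 peaks in SMC 1 and 10 in SMC 2 against 52 and 44 in the non-SMC lines. The Cdkn2b cluster had 7, 20, 38 and 29. In both clusters each non-SMC line had more peaks than either SMC line. By the rule, however, each member adds at least 1 peak to each non-SMC line and none to an SMC line. The counts of peaks in the other clusters and in single member bins are fixed in part in the same way.

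The fifth cluster, over chr15:62100001-62400000, held 20 members, all nearest to Myc, a growth-promoting transcription factor gene; 17 of them lay inside Pvt1, a long noncoding RNA gene next to it. It had 16 SMC 1, 14 SMC 2, 44 non-SMC 1 and 45 non-SMC 2 peaks, and 9 of its members held AP-1. With 25 members in all, at a median distance of 301781 bp, Myc was the gene nearest to the most members. Its promoter had a peak in all 4 libraries, at percentiles 75.7, 73.3, 63.7 and 81.6 in the order SMC 1, SMC 2, non-SMC 1 and non-SMC 2. By the rule, members lack an SMC peak and lie over 3 kb from every 5′ end. That the differing regions lay away from the promoter was therefore fixed by the choice. In all, 47 non-SMC-only distal regions were nearest to Myc, of which 25 were members.

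The clusters at Ext1 and Rai14 on chromosome 15 had the fewest SMC peaks among the 12 largest. All 19 members at Ext1, which encodes an enzyme of heparan sulfate synthesis, lay in its introns over chr15:53100001-53300000, and the stretch had 2 SMC 1 and 7 SMC 2 peaks against 45 and 35. Its strongest member, printed above, had a pileup of 146 (98.3 times background) in non-SMC 1 and 35 (54.8 times) in non-SMC 2. The 19 members over chr15:10600001-10900000 at Rai14, an actin-binding protein gene, had 4 and 7 SMC peaks around them against 46 and 40. By the rule, the SMC peaks that were present lay at other positions than the members.

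In other large clusters SMC peaks were frequent too. The 22 members around Ptpn1, a protein tyrosine phosphatase gene on distal chromosome 2, lay among 31 SMC 1 and 34 SMC 2 peaks against 45 and 51. All 4 libraries had a raised local background there, 2.09, 2.26, 2.14 and 2.58 times the genome background. The 20 members at Tns3, a focal adhesion protein gene, lay among 27, 49, 46 and 55 peaks, and 16 of them were intronic. The 21 members at Zmiz1, a transcription coregulator gene, lay among 35, 35, 53 and 45. The 20 members at Irf2 and Primpol lay among 26, 42, 38 and 43. In the Irf2 and Tns3 clusters SMC 2 had more peaks than non-SMC 1, but its whole list was also longer, with 153950 peaks against 115827.

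The remaining 3 of the 12 were the following. At St3gal1, a sialyltransferase gene, 21 members lay over chr15:67000001-67300000, of which 14 held AP-1, the highest number in the 12. At Ltbp1, a matrix protein that binds latent TGF-beta, all 19 members were intronic over chr17:75000001-75300000, and 8 held AP-1. At Sept9, a septin gene, 18 of 19 members lay in its introns, and 11 held AP-1. Together the 12 clusters held 244 members.

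**Figure D3:**
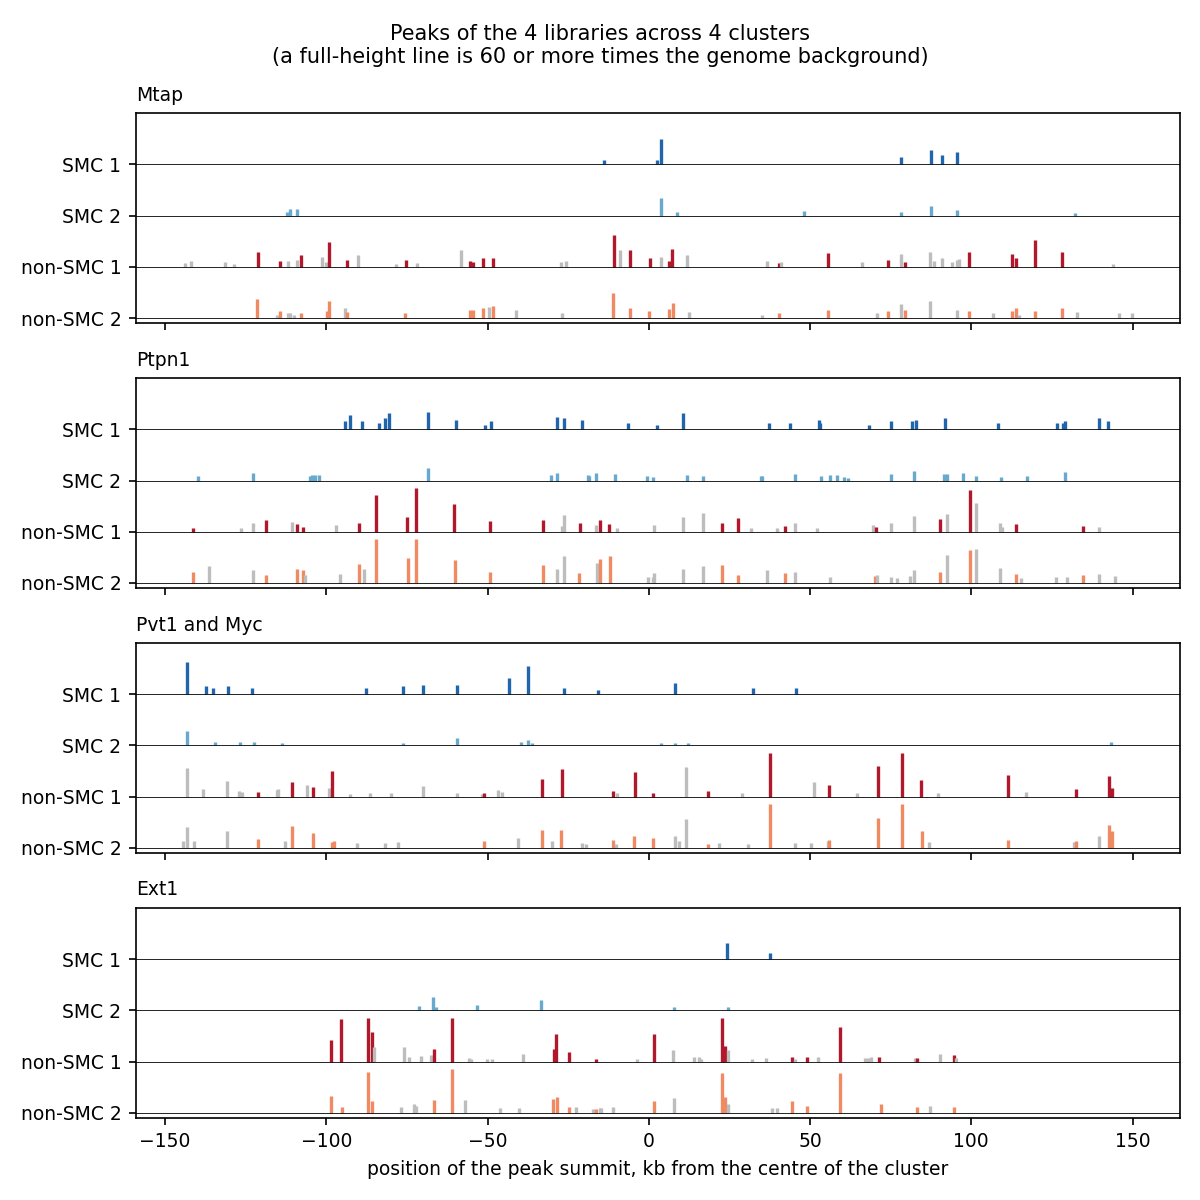
Peak summits of the 4 libraries across 4 of the 12 largest clusters, by kb from the centre of the cluster (horizontal axis), each line as tall as the pileup over the genome background up to 60 times. Members are red and orange in the non-SMC rows, other non-SMC peaks grey, and SMC peaks blue: Ext1 had 2 and 7 SMC peaks, and Ptpn1 had 31 and 34.

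After Myc, the genes nearest to the most members were Ext1, Tns3 and Zmiz1 with 20 each. Dut, which encodes dUTPase, and Foxp1, a forkhead factor, followed with 18, and Med13l, Sept9 and Tgfb2, a TGF-beta ligand, with 17. Asap1, Col5a1 and Jag1, a Notch ligand, had 16 each. In all, 1097 genes were nearest to at least 1 member and 78 to 10 or more. Of the 18 members nearest to Dut, 10 lay in 1 bin inside Fbn1, the gene of fibrillin. Nearness does not show which gene a region acts on. Of these 12 genes, Tgfb2, Med13l, Zmiz1 and Sept9 did not have a promoter peak in all 4 libraries, and none of the 12 was non-SMC-only at its promoter.

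Of the 21755 protein-coding genes on these chromosomes, 630 (2.90%) had their 5′ end in a member bin, and 431 bins (52.0%) held no gene start. Per bin this was 0.760 gene starts, against 1.05 in bins with 1 to 4 non-SMC-only distal regions. Bins with no non-SMC-only distal region but some peak had 0.697.

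Promoters in the member bins were mostly open in both cell types. A promoter peak in all 4 libraries was found at 326 of the 630 genes (51.7%), against 51.9% of genes in bins with 1 to 4. The promoter was non-SMC-only at 30 genes (4.76%, Wilson 95% interval 3.36 to 6.72), against 2.83% in bins with 1 to 4 and 2.21% of all genes. It was SMC-only at 14 (2.22%), against 2.78% and 3.20%. Promoter peaks were not used to choose members, but they come from the same libraries and from neighbouring chromatin, so these shares are a description.

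The 30 non-SMC-only promoters in member bins included 4 chemokine genes in adjacent bins on chromosome 11. These were Ccl2 and Ccl7, with percentiles of 73.1 and 87.8 in non-SMC 1 and 81.5 and 79.0 in non-SMC 2, and Ccl8 and Ccl12, with 97.3 and 22.8 in non-SMC 1 and 95.1 and 53.5 in non-SMC 2. They attract monocytes. Tnc, a matrix glycoprotein of wounds and tumors, was at 84.8 and 68.6, S100a11 at 90.1 and 79.2, and Spp1, which encodes osteopontin, at 81.5 and 74.3. Axl and Pdgfrb, receptor tyrosine kinases of mesenchymal cells, were at 69.4 and 68.3 and at 68.9 and 79.6. Notch1 was at 57.0 and 74.4. The 14 SMC-only promoters included Cckbr and Galr1, receptors for peptide hormones, and Prlhr, another peptide receptor, at percentiles 19.7, 63.4 and 52.0 in SMC 1 and 68.2, 82.7 and 72.8 in SMC 2.

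Extracellular matrix genes lay in member bins most often among the lists of 8 or more genes. Of 38 integrin, laminin and matrix genes, 12 (31.6%, Wilson 95% interval 19.1 to 47.5) had their 5′ end in a member bin, where the share of all genes was 2.90%. They included the collagen genes Col5a1 (11 members in its bin), Col4a1 and Col4a2 (8, a shared bin) and Col6a2 (5), the laminin gene Lama5 (6), the integrin genes Itgb3 (9), Itgav (7), Itga5 (5) and Itgb5 (5), and Tnc (7) and Sparc (5). The promoters of 6 of the 12 had peaks in every library, and that of Tnc was non-SMC-only. In the Tnc bin SMC 1 had 1 peak and SMC 2 none, against 12 and 12. Fn1, which encodes fibronectin, had no dense bin at its start, with 4 such regions in that bin, but was nearest to 11 members. The lists were chosen with earlier results of these data known, so these counts describe the bins and are not independent evidence.

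Genes of the contractile cytoskeleton and caveolae came next, with 7 of 28 (25%). Among them Actn1, an actinin, and Anxa2, an annexin, had 8 members each in their bins, S100a11 7, Vim, the intermediate filament protein of mesenchymal cells, and Flna 6 each, and Pdlim5 5. Of the 7, 4 had a promoter peak in all 4 libraries. In the S100a11 bin SMC 1 had no peak and SMC 2 had 7, against 17 and 21. Lpp, with 9 members nearest to it, and Cald1, with 5, had no dense bin at their start.

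Cytokine, chemokine and antigen presentation genes counted 7 of 34 (20.6%): Csf1 (11), Il1r1 (6) and Il1rl1 (5), receptors of the interleukin 1 family, Cxcl1 and Cxcl5 (6 each), neutrophil chemokines, and Ccl2 and Ccl7 (6, a shared bin). SMC 1 had no peak in the Cxcl1 and Cxcl5 bins, and SMC 2 had 4 and 5, against 7 and 13 in non-SMC 1 and 18 and 20 in non-SMC 2. Proteases and plasminogen activation counted 4 of 20, among them Plau, the urokinase gene, and Adam9 (6 each) and Timp2 (5). Growth factor receptors and ligands counted 6 of 32 (18.8%): Met (8), the hepatocyte growth factor receptor, Pdgfc (7), and Axl, Fgfr2, Pdgfb and Pdgfrb (5 each). The Met bin had 3 and 6 SMC peaks against 13 and 11, and Met was nearest to 12 members. In all 3 lists the share was above the 2.90% of all genes, and several genes shared a bin or lay in adjacent bins.

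The Hippo, TGF-beta and Notch pathways and the transcription factor lists had at most 4 genes each in member bins, where 2.90% of all genes lay. Of 25 YAP and TAZ target genes 4 (16.0%) did: Amotl2 (8), Axl, Igfbp3 and Nuak2 (5 each). Of 20 Hippo pathway and TEAD genes 1 did, Amotl2, which is in both lists and binds YAP. Of 20 TGF-beta genes 3 did: Smad7 (7), an inhibitor, Smad3 (6), a signal transducer, and Ltbp1 (5). Of 16 Notch and Rest genes 3 did: Notch1 (7), Notch2 and Rbpj, the DNA-binding effector (5 each). Of 12 AP-1 factor genes Atf3 (6) and Jun (5) did, of 18 mesenchymal transcription factors Snai1 (6) and Foxc2 (5), and of 4 RUNX factor genes none, although Runx1 and Runx3 were each nearest to 6 members. Of all genes, 5.05% were nearest to at least 1 member.

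Cd44, which with Ncam1 encodes the markers by which both cell types were sorted, had 7 members in its bin and 12 nearest to it. The bin held 2 SMC 1, 8 SMC 2, 12 non-SMC 1 and 13 non-SMC 2 peaks. The strongest of the 12, between genes and 42458 bp from the Cd44 5′ end, had a pileup of 116 (78.1 times background) in non-SMC 1 and 43 (67.3 times) in non-SMC 2. The sorted surface marker is not independent of the cell types compared. Ncam1 had 3 non-SMC-only distal regions in its bin and no member nearest to it, and Epcam had none of either; the Epcam promoter was SMC-only.

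None of 20 neuroendocrine marker genes started in a member bin, and none was nearest to a member. The count in member bins was 6 without non-SMC 1 and 3 without non-SMC 2, where the member bins numbered 8592 and 6902 instead of 829. The share of all genes in those larger sets of bins is not given, so these counts cannot be set against the 0 of 20. The upper limit of the Wilson 95% interval for 0 of 20 was 16.1%, so with 20 genes the share of all genes lay inside it. In the 111 dense SMC-only bins, where 60 genes started, 2 of the 20 did. Among lists of other cell types the tumors could hold, fibroblast markers counted 1 of 10 (Pdgfrb), endothelial markers 1 of 8 (Kdr), epithelial markers 2 of 18 (Sftpb and Scgb1a1), and macrophage and lymphocyte markers 0 of 8 each. The lines were sorted and cultured, and the part of other cell types in these counts was not tested.

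**Figure D4:**
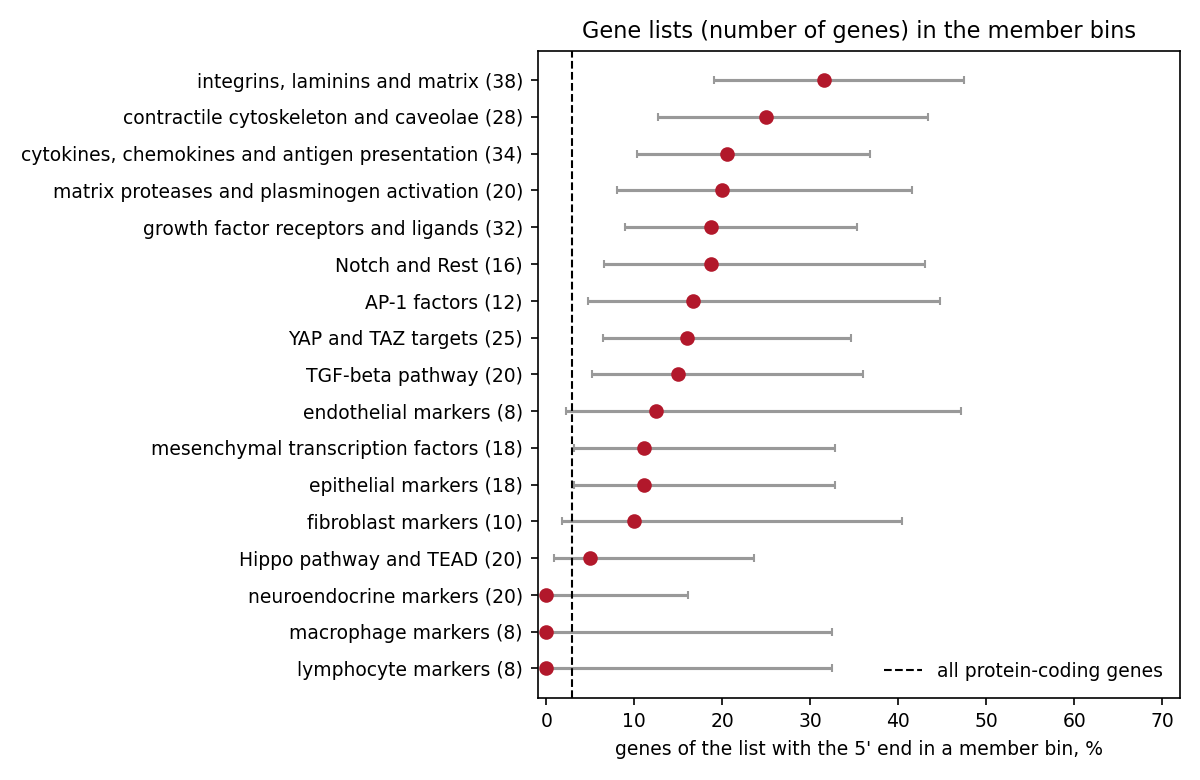
Share of each gene list (vertical axis, with its number of genes) whose 5′ end lay in a member bin (horizontal axis, %), as points with Wilson 95% intervals; the dashed line is the 2.90% of all protein-coding genes. Matrix genes lie highest at 31.6% and neuroendocrine, macrophage and lymphocyte markers at 0; 2 lists of fewer than 8 genes are left out.

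The AP-1 motif was the most frequent of 13 motifs within 100 bp of the members' summits, whereas within 250 bp SOX, with 55.0%, passed AP-1, with 52.6%. Within 100 bp, AP-1 was found in 2196 members (45.4%, Wilson 95% interval 44.0 to 46.8). It was found in 2.86% of dense SMC-only regions, 19% of distal regions with a peak in all 4 libraries, which were by coincidence also 4842, and 11.2% of all 357556 regions. RUNX was found in 32.9% of members against 17.97% of dense SMC-only regions, 20.03% of distal regions with a peak in all 4 and 20.4% of all regions. TEAD was found in 20.2% against 9.54%, 11.9% and 12.6%. Members exceeded dense SMC-only regions by 42.5 percentage points for AP-1 (Newcombe 95% interval 40.4 to 44.2), 14.9 for RUNX (11.4 to 17.998) and 10.7 for TEAD (7.88 to 13.0). At least 1 of the 3 motifs was present in 73.1% of members.

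Motifs of the other cell type were less frequent at members than at dense SMC-only regions. SOX (ACAAAG or ACAATG) was found in 27.6% of members and 38.2% of dense SMC-only regions, the E-box CAGCTG in 15.04% and 22.9%, and FOX (TGTTTAC or TGTTTGC) in 7.74% and 19.2%. For SOX the share at members was near that of all regions, 26.7%, and for FOX 8.75% of all regions held it. For the E-box members were above all regions, 13.7%. The CTCF motif was found in 0.558% of members, against 5.60% of distal regions with a peak in all 4. The others, CRE (TGACGTCA), ETS (CCGGAAGT or CAGGAAGT), NFI, STAT (TTCCNGGAA), CEBP (TTGCGCAA or TTGCACAA) and the POU octamer (ATGCAAAT), were each found in at most 3.45% of members, and in at most 2.69% of all regions. Matches were counted on both strands, also where 2 motifs overlapped.

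Dense and scattered non-SMC-only regions held nearly the same motifs. AP-1 was found in 48.4% of scattered regions, so members were lower by 3.02 percentage points (difference -3.02, Newcombe 95% interval -4.58 to -1.44). The share was 49.5% in bins with 1 region, 47.4% in bins with 4, 46.0% in bins with 5 and 44.9% in bins with 8 to 11. For TEAD the difference was 0.83 percentage points (-0.41 to 2.11), for RUNX 1.16 (-0.30 to 2.65) and for SOX -0.58 (-1.98 to 0.84). These 3 intervals, for matches within 100 bp, held 0. Within 250 bp the TEAD difference was 1.61 (0.11 to 3.12), which left out 0, whereas the RUNX and SOX intervals still held it. The E-box was found slightly more often in members within 100 bp, by 1.30 percentage points (0.20 to 2.44). The AP-1 difference did not keep its sign in every setting: it was 0.88 with SMC 2 and non-SMC 2 alone and 0.86 without non-SMC 1.

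**Figure D5:**
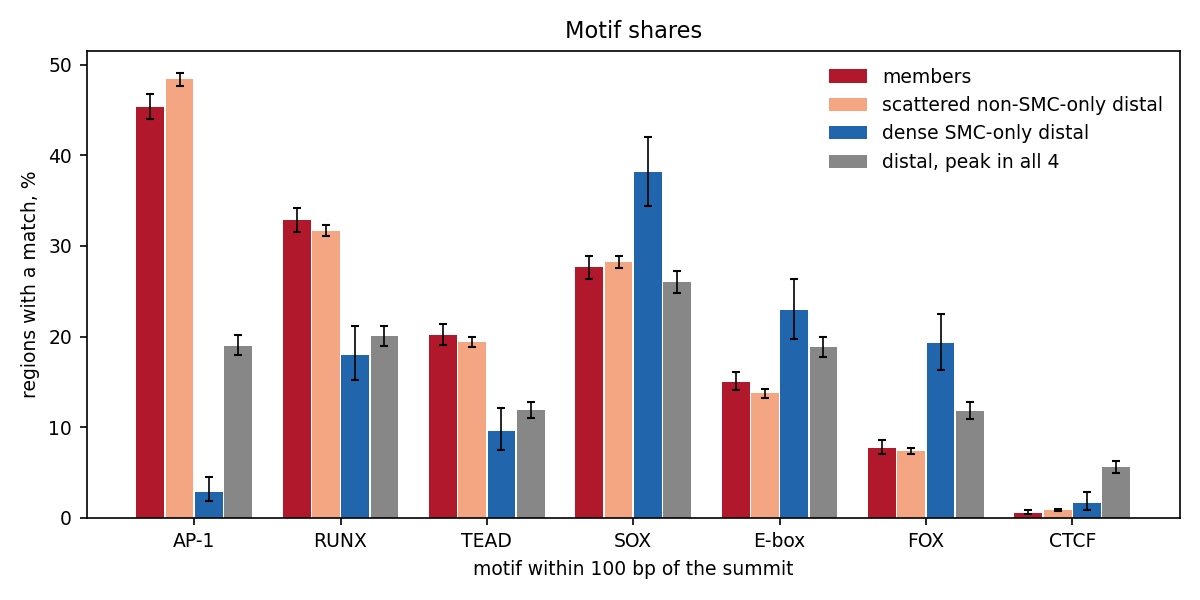
Share of regions (vertical axis, %) with a match to each of 7 motifs within 100 bp of the summit, as bars with Wilson 95% intervals, for members (dark red), scattered non-SMC-only distal regions (orange), dense SMC-only regions (blue) and distal regions with a peak in all 4 libraries (grey). The red and orange bars lie within 3.02 percentage points of each other for every motif shown, and AP-1 stands at 45.4% and 48.4% against 2.86% in blue.

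Stronger members held AP-1 more often. With the members split by their mean percentile of fold enrichment into 4 sets of equal size, from lowest to highest, the share was 30.1%, 44.6%, 49.0% and 57.7%. RUNX ran from 29.5% through 29.3% and 34.6% to 38.1%, and TEAD from 16.5% through 19.9% and 22.6% to 21.8%. Members with AP-1 held TEAD less often than those without, 16.9% against 22.9%, and RUNX less often, 28.4% against 36.5%. All 3 motifs were found in 117 members (2.42%), such as the Capn13 and Trio members printed above. Among AP-1 holders 29.4% had the match within 20 bp of the summit. AP-1 was found in 44.1% of intronic and 46.9% of intergenic members.

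At least 1 member with AP-1 lay in 795 of 829 bins (95.9%), at least 3 in 422, and in 14 bins every member held it. In 519 bins (62.6%) AP-1, TEAD and RUNX were each found in at least 1 member. Since AP-1 was frequent among members and each bin held several, most bins would hold it by count alone. The number of bins expected from the overall share was not worked out. Whether AP-1 was spread over the bins more or less evenly than that was not tested. Of the 34 bins without AP-1, 1 held 10 members, all in Rad51b, a recombination repair gene on chromosome 12. It had 3 SMC 1 and 2 SMC 2 peaks against 14 and 15, and its local background was 1.00 times the genome background in both non-SMC lines. Its strongest member, printed above, had a pileup of 35 in non-SMC 1 and 9 in non-SMC 2.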

How the data were processed

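ATAC-seq peak lists of 4 libraries, 1 per line, were analysed; reads and RNA-seq were not analysed here. Per the labels and the study's methods, reads were mapped to mm10 with Bowtie2 and peaks called in each library separately with MACS2; the submitters' processing notes give Bowtie2 2.3.4 and MACS2 2.1.1. The calling settings were not given in the sources used here, and every listed peak had a -log10 p of at least 2. Fold enrichment, as deposited, is the ratio of pileup to local background within 1 library. Also deposited by the authors were -log10 of p and q, the summit position, and a score that was not used. Pileup and background were recovered from each peak's fold enrichment and p, for all but 3 to 5 peaks per library, after a check on simulated data. Lists on chromosomes 1 to 19 and X were merged at 1 base of overlap, and positions were matched to GRCm38 and GENCODE M21. Values were ranked within a list and not compared between lists on their own scale, since depth differed; the pileup behind a peak limits its precision. Read totals per library were not used.

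The members, gene lists and motifs were chosen with earlier results of these data known. Named are the 12 largest clusters, the 10 genes with the most members nearest to them, with ties, and list genes starting in a member bin; others were named after their values were seen. Some genes of the lists are not reported here. Shares have Wilson intervals and differences Newcombe intervals; motifs were counted around the summit of the peak with the higher percentile. Alternatives were an equal number of top peaks for each library (91046), peaks with -log10 q of 5 or more, 50% overlap, autosomes only, bins shifted by 50 kb or of 200 kb or 50 kb, other minimum counts, 5′ ends of every transcript, 1 SMC and 1 non-SMC line of the same number, motif windows of 50 and 250 bp, promoters of 3 kb, nearest genes, no raised bins, and each library left out. Python 3.11.15, numpy 2.4.6, pandas 2.3.3, scipy 1.17.1, pysam 0.24.0, matplotlib 3.10.9 and bedtools 2.31.1 were used.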

Additional observations from a re-analysis of the deposited data

How the results depend on the processing

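The number of members depended on the rule and on having both lines of each type. It was 787 (143 bins) at a -log10 q of at least 5, 1799 (323) with 50% overlap, 1686 (146) in bins of 200 kb with 10 or more, 7435 (2134) in bins of 50 kb with 3 or more, 8338 (1703) with 4 or more per bin, 2632 (387) with 6 or more, 61025 (7821) in line pair 1 (SMC 1 and non-SMC 1) and 67948 (8963) in line pair 2 (SMC 2 and non-SMC 2); these lines share only a number, and the labels do not say that they come from 1 tumor. Leaving out 1 library gave 6138 (SMC 1) to 63621 (non-SMC 1) members and 1039 to 8592 bins; it was 7473 without SMC 2 and 50917 without non-SMC 2. The AP-1 share of members was 52.2% at a -log10 q of at least 5, 47.2% with the same number of top peaks, 48.8% with 50% overlap, 47.0% with shifted bins, 43.7% in bins of 200 kb, 26.1% in line pair 1, 19.98% in line pair 2, and 32.8% and 52.6% with windows of 50 and 250 bp. Without 1 library it lay between 19.95% and 45.1%.

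The AP-1 difference from scattered regions was -5.10 percentage points at a -log10 q of at least 5, -0.90 with shifted bins and 0.88 in line pair 2; without 1 library it ran from -2.95 to 0.86, the latter without non-SMC 1. The TEAD difference was -0.47 with shifted bins, -0.27 in line pair 1 and -0.0886 in line pair 2, and the RUNX difference -0.30 at a -log10 q of at least 5, -0.70 with 50% overlap and -0.25 with shifted bins. Member bins without an SMC peak were 22.4% at a -log10 q of at least 5, 0.991% with shifted bins, 0% in bins of 200 kb, 6.04% in bins of 50 kb and 6.52% in line pair 1, and 1.62% to 7.50% without 1 library. Non-SMC-only promoters were 13.7% at a -log10 q of at least 5, 12.3% in line pair 1 and 7.36% in line pair 2, and 5.38% to 11.9% without 1 library. Matrix genes in member bins were 3 at a -log10 q of at least 5, 5 in bins of 200 kb, 27 and 29 in line pairs 1 and 2, and 12 to 28 without 1 library; neuroendocrine genes were 5 and 6 in line pairs 1 and 2, and 0 to 6 without 1 library. Member bins numbered from 143 to 8963 over these settings, and the share of all genes in them is not given. The counts of matrix and neuroendocrine genes can therefore not be compared between settings. The cause of the changes between settings was not tested. No paired analysis was possible because the labels do not tie lines of the same number to each other and no result comes from a test. The 2 non-SMC lines differed in depth, and SMC 1, the shallowest library, limits which absences can be seen.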
